A study of Mus musculus with 4 samples.

Results

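Collagens are the main structural proteins of the extracellular matrix, and each one is a trimer of alpha chains wound into a triple helix. Fibrillar collagens build the cables of connective tissue, whereas type IV collagen forms the sheet-like network of basement membranes, and types II, IX and XI make up the thin fibrils of cartilage and of the vitreous body. In the embryonic eye, collagens line the retina at the inner limiting membrane, fill the vitreous, form the lens capsule and Bruch's membrane, and surround the vessels and the periocular mesenchyme. The collagen genes were taken as every row of the count table whose symbol has the form Col, a number, the letter a and a number, which gave 44 of 24062 genes. They were sorted into 4 classes, namely 8 fibrillar, 8 basement membrane, 6 lens and vitreous, and 22 other collagens.

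RNA-seq of mouse retinas at E13.5 was compared between 2 wildtype libraries and 2 libraries of *Nrf1 f/f;Six3-Cre* retinas, which the labels call Nrf1-CKO and which are called mutant here. Nrf1 is a transcription factor for nuclear genes of mitochondrial function, and the comparison asks which retinal genes change without it. All mice were on a mixed C57BL/6 and 129 background. The mutant allele lacks exon 4 of *Nrf1* where Six3-Cre is active, that is in retinal progenitors, starting in the central retina, so cells outside the reach of this Cre keep the gene. Retinas of several littermates were pooled for each library, and no embryo was measured alone. The p-values below therefore measure only the spread between 2 pooled libraries per genotype.

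The libraries held 74577660 to 85933945 reads counted on genes, and after a filter on low counts 15762 genes were tested. The quasi-likelihood test of edgeR, adjusted over all of these genes by the Benjamini-Hochberg method, compared the genotypes, and every adjusted p below comes from it. A gene was called higher or lower when it differed at least 1.4-fold with an adjusted p of 0.2 or less, the limits used in the study. CPM are reads scaled to the library size with edgeR's TMM factors, reads and CPM are given for replicate 1 and then replicate 2 of a genotype, log2 fold changes are mutant over wildtype, and SE is their standard error. *Nrf1* itself (chromosome 6, 30047988 to 30153458) had 9052 and 7789 wildtype against 8594 and 8284 mutant reads, a log2 fold change of -0.03 (SE 0.07, adjusted p = 0.794). A count over the whole gene does not check the loss of a single exon, so the genotype labels were not checked by this gene. *Pax6*, a defining gene of retinal progenitors, was abundant in all 4 libraries (48960 to 55418 reads), so this marker of the labelled tissue was present. Coordinates are those of GENCODE M21 on GRCm38, the build that mm10 names.

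Of the 44 collagen genes, 42 passed the filter and were tested. In the mutant retinas 28 were called higher and 1, *Col23a1*, was called lower, while 13 were not called. Over all 15762 tested genes, 12.8% were called higher and 8.04% lower. The 28 higher genes included 20 whose adjusted p was 0.05 or less, a level reached by 9.17% of all genes in that direction and by 6.59% in the other. The median log2 fold change of the 42 collagen genes was 0.72, with a range of -0.56 to 3.69, whereas the median over all genes was 0.00073. The mutant libraries were both higher than either wildtype library in 30 of the 42 genes, against 30.9% of all genes, and below them in 1, against 31.6%. Summed over the 44 genes, collagen made up 2442 and 2217 CPM in the wildtype and 3661 and 3745 CPM in the mutant libraries, a ratio of the group means of 1.59. In RNA from whole retinas, more RNA per cell and more cells of a collagen-making type cannot be told apart.

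Leaving out each library in turn, 17 of the 28 genes called higher were called in all 4 fits. The count of higher calls was lowest, at 20, without wildtype replicate 2, and it was 21 without mutant replicate 1. Of the 28 collagen genes that averaged at least 5 CPM, 20 were called higher, 1 lower and 7 were not called. The other 16 genes were rare, and 8 of the 14 tested among them were called higher. The plot of fold changes by class shows these differences with their errors.

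**Figure D1:**
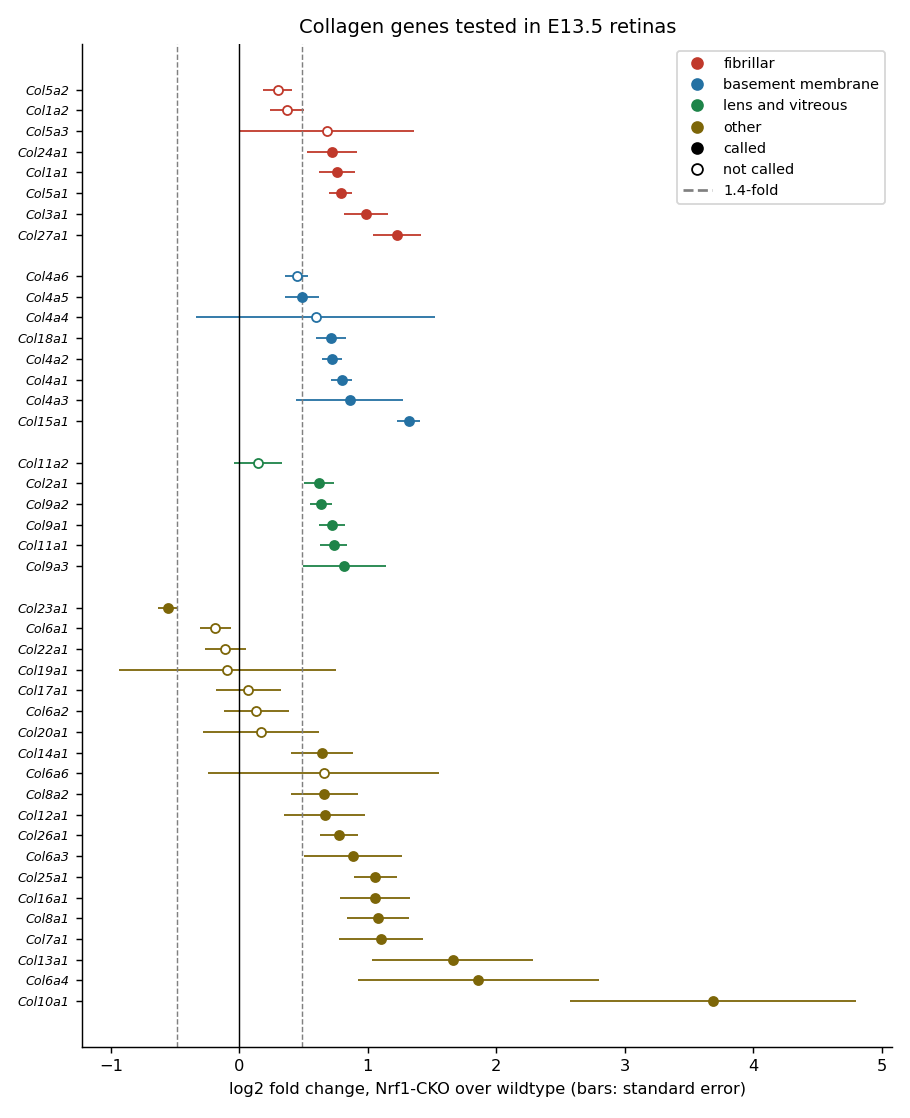
Log2 fold change of each tested collagen gene in mutant over wildtype retinas, grouped by class, with bars for the standard error. Filled points were called and open points were not, and dashed lines mark a 1.4-fold change. Of 42 genes, 28 filled points lie to the right and 1, *Col23a1*, to the left.

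Sequences at the starts of 5 genes are shown, for a shared start, for a gene with several starts, and for 1 gene called in each direction. *Col4a1* and *Col4a2* lie head to head on chromosome 8, and the annotated starts of the genes at 11312826 and 11312805 leave their first exons overlapping by 22 bases on opposite strands. The 30 bases around both starts, chr8:11312801-11312830, are given on the plus strand of GRCm38.p6 (RefSeq), with the bases that belong to both first exons in capitals.
Col4a2 and Col4a1 starts: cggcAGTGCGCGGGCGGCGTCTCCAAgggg
*Col9a1* has 2 RefSeq starts, and the upstream sequences of both are given on the plus strand, 100 bases at chr1:24177510-24177609 and 30 bases at chr1:24195173-24195202, the second with a CCAAT box in capitals. The deposited counts are sums over the gene and do not separate transcripts from these starts.
Col9a1, first start: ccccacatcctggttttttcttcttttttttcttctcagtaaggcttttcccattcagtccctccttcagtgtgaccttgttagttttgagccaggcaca
Col9a1, second start: gttagctctcctCCAATccccaggaccctc
The 100 bases before *Col5a1*, called higher (chr2:27886325-27886424), and before *Col23a1*, the collagen gene called lower (chr11:51289820-51289919), are given on the plus strand with a GC box in capitals, which in *Col23a1* is on the opposite strand.
Col5a1: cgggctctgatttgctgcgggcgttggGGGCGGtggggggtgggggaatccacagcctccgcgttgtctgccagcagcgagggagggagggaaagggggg
Col23a1: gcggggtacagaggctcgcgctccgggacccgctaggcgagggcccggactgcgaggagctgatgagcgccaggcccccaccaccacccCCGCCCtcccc

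RefSeq windows of 300 bases, from 250 before to 50 after a start, were matched for 35 collagen genes and held 38 starts. The letters of the NRF1 motif, GCGCA followed by any base and GCGC, were searched on both strands and were in 0 of these 38 windows and in 6.44% of the 20291 windows of genes in the table. The GC box GGGCGG was in 23 windows (60.5%, against 47% of all), the letters CCAAT in 13 (34.2%, against 38.1%) and TATAAA in 5 (13.2%, against 12.2%), each on both strands. These are matches of letters in the windows searched and were not measured as bound sites.

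Basement membrane collagens were the most abundant class and held 49.1% to 53.3% of collagen CPM in each library. Of its 8 genes, 6 were called higher and 2 were not called, with a median log2 fold change of 0.72. The summed level was 1199.8 and 1157 CPM in the wildtype and 1951 and 1969 CPM in the mutant libraries. The libraries of a genotype thus lay close together, and the ratio of the group means was 1.66.

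*Col4a1* and *Col4a2* encode the chains of the alpha-1, alpha-1, alpha-2 trimer found in nearly all basement membranes. *Col4a1* (chromosome 8, 11198423 to 11312826) had 37710 and 31149 wildtype against 64077 and 58530 mutant reads. Both mutant libraries were above both wildtype libraries, with 739 ± 45.2 against 425 ± 7.52 CPM (SD, n = 2), a log2 fold change of 0.80 (SE 0.08, adjusted p = 0.000294). Its neighbour *Col4a2* (chromosome 8, 11312805 to 11449287) had 26206 and 22362 against 41018 and 41181 reads. The groups were again separate, at 300.4 ± 1.60 and 496 ± 2.83 CPM, with a log2 fold change of 0.72 (SE 0.08, adjusted p = 0.000313) that stayed from 0.72 to 0.73 whichever library was left out. Per kilobase of the longest annotated coding transcript, *Col4a1* was the most abundant collagen RNA, at 64.3 in the wildtype and 112 in the mutant libraries (RPKM, computed from CPM). The ratio of *Col4a1* to *Col4a2* on this scale was 1.403 and 1.358 in wildtype against 1.52 and 1.39 in mutant libraries, so the groups overlapped.

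The X-linked pair *Col4a5* and *Col4a6*, which encodes chains of the alternative type IV networks, lies head to head with 1308 bases between the genes. *Col4a5* (X, 141475385 to 141689234) had 8199 and 5829 wildtype against 11394 and 8677 mutant reads. Its log2 fold change of 0.49 (SE 0.13, adjusted p = 0.0285) was called but sat at the 1.4-fold threshold, and the call was lost without wildtype replicate 2 (0.37) or mutant replicate 1 (0.28) and with the replicate number as a block (0.48). *Col4a6* (X, 141165403 to 141474076) had 4626 and 3557 against 6033 and 5361 reads. At a log2 fold change of 0.45 (SE 0.09, adjusted p = 0.00737) it was just below the threshold of fold and was not called, although its groups did not overlap. The remaining pair, *Col4a3* and *Col4a4*, encodes chains of the network known from mature glomeruli and was nearly silent, at most 131 reads per library. *Col4a3* (51 and 75 against 108 and 131 reads) was called at a log2 fold change of 0.86 (SE 0.42, adjusted p = 0.183), and the call held in only 1 of the 4 fits that leave out a library. For *Col4a4* the reads were 6 and 31 against 14 and 46, with overlapping groups and no call.

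*Col15a1* and *Col18a1* encode the multiplexins, collagens that carry heparan or chondroitin sulphate chains at basement membranes, and *Col18a1* gives rise to endostatin. *Col15a1* (chromosome 4, 47208161 to 47313167) had 1658 and 1319 wildtype against 3894 and 3699 mutant reads. It had the largest fold change of the class, 18.4 ± 0.812 against 45.8 ± 1.53 CPM and a log2 fold change of 1.32 (SE 0.09, adjusted p = 9.45e-05), with a range of 1.28 to 1.37 over the fits without 1 library. *Col18a1* (chromosome 10, 77052178 to 77166548) had 26623 and 21486 against 35542 and 45273 reads. Its mutant libraries were both higher but less alike than those of *Col15a1*, at 488 ± 84.4 CPM against 297 ± 10.1 CPM in the wildtype, and its log2 fold change was 0.72 (SE 0.12, adjusted p = 0.00248).

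**Figure D2:**
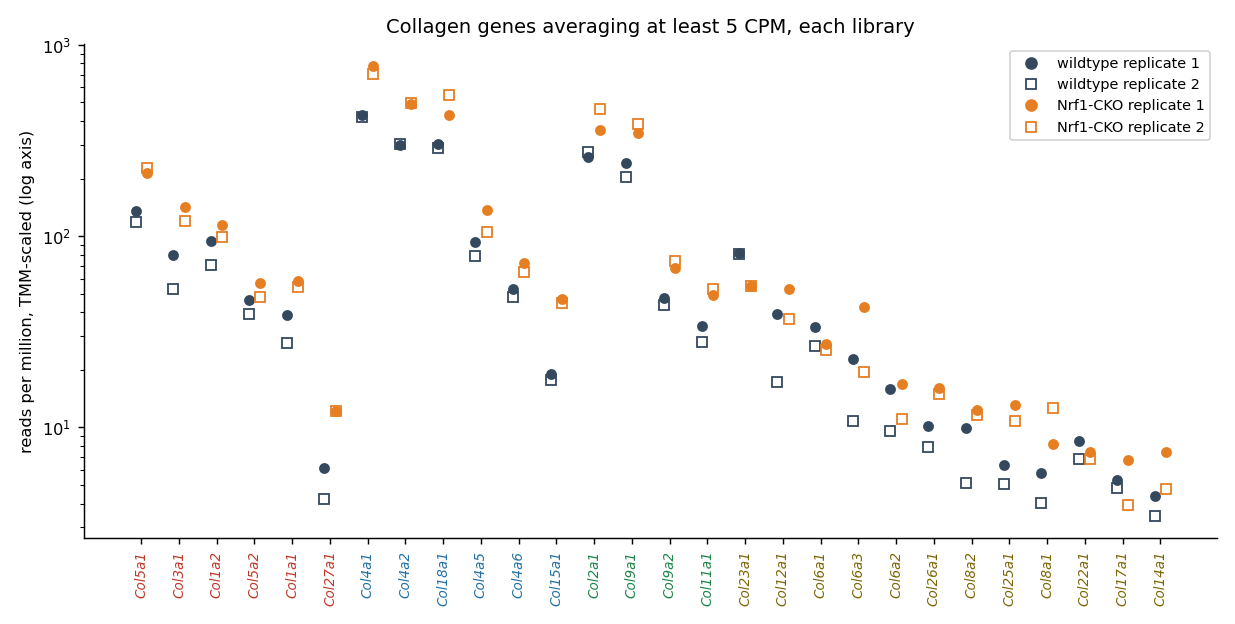
TMM-scaled CPM of the 28 collagen genes that averaged at least 5 CPM, on a log axis, with circles for replicate 1 and squares for replicate 2 of each genotype. Gene names are red for fibrillar, blue for basement membrane, green for lens and vitreous and brown for other collagens. *Col4a1* is highest in every library, and *Col23a1* is the gene with both mutant libraries below both wildtype libraries.

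The lens and vitreous class holds the chains of types II, IX and XI, which assemble into mixed fibrils. Of its 6 genes, 5 were called higher and 1 was not called, with a median log2 fold change of 0.68. The summed level was 587 and 555 CPM in the wildtype and 826 and 985 CPM in the mutant libraries, a ratio of the group means of 1.59. In each of the 4 of these genes that averaged at least 5 CPM, mutant replicate 2 was above mutant replicate 1.

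*Col2a1* encodes the single chain of type II collagen, the core of the vitreous fibril. At chromosome 15, 97975602 to 98004695, it had 22749 and 20354 wildtype against 29656 and 38378 mutant reads. The groups were separate, at 267 ± 10.4 and 410.4 ± 75.6 CPM, with a log2 fold change of 0.62 (SE 0.12, adjusted p = 0.00613). Mutant replicate 2 carried much of the difference, and without it the log2 fold change was 0.42, below the 1.4-fold threshold.

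*Col9a1*, *Col9a2* and *Col9a3* encode the chains of type IX collagen, which sits on the surface of type II fibrils. *Col9a1* (chromosome 1, 24177610 to 24252684) had 21082 and 15070 wildtype against 28676 and 32053 mutant reads, a log2 fold change of 0.72 (SE 0.10, adjusted p = 0.00139). It was the second collagen RNA per kilobase, at 57.9 RPKM in the wildtype and 95.5 RPKM in the mutant libraries. *Col9a2* (chromosome 4, 121039385 to 121055322) had 4168 and 3238 against 5632 and 6145 reads, a log2 fold change of 0.64 (SE 0.09, adjusted p = 0.000976). Both genes had separate groups and were called in every fit that left out a library. *Col9a3* (chromosome 2, 180597790 to 180622189) was counted at only 97 and 76 against 144 and 168 reads, a log2 fold change of 0.82 (SE 0.32, adjusted p = 0.108), and it stayed called in 1 of the 4 fits that leave out a library. The ratio of *Col9a1* to *Col9a3* per kilobase lay between 152 and 173 in the 4 libraries, although the 3 chains form 1 trimer. Exons of *Col9a3* overlap those of *Tcfl5*, so its count is uncertain. Exons of other collagen genes that were called, namely *Col3a1*, *Col4a1*, *Col4a2*, *Col4a3*, *Col5a1*, *Col6a4*, *Col7a1*, *Col10a1* and *Col15a1*, also overlap those of another annotated gene, and the same limit holds for them.

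*Col11a1* and *Col11a2* encode type XI chains, which lie inside type II fibrils. *Col11a1* (chromosome 3, 114030540 to 114220718) had 2969 and 2065 wildtype against 4114 and 4398 mutant reads. It was called at a log2 fold change of 0.73 (SE 0.11, adjusted p = 0.00150), with separate groups. *Col11a2* was rarer, at 354 and 330 against 411 and 368 reads. Its groups overlapped once scaled to depth, and its log2 fold change of 0.15 (SE 0.19, adjusted p = 0.635) was not called.

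Fibrillar collagens other than types II and XI are products of connective tissue, among them type I of bone, skin and sclera, type III of vessels and loose tissue, and type V, which nucleates type I fibrils. All 8 genes of the class had a log2 fold change above 0, 5 were called higher and 3 were not called, and the median was 0.74. Summed CPM was 405 and 317 in wildtype against 603 and 567 in mutant libraries, a ratio of the group means of 1.62. The gap between the wildtype libraries was wider than in the basement membrane class, with a median log2 ratio of replicate 1 to replicate 2 of 0.45 over the class against 0.05.

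*Col1a1* (chromosome 11, 94936224 to 94953042) had 3371 and 2056 wildtype against 4821 and 4478 mutant reads, a log2 fold change of 0.76 (SE 0.14, adjusted p = 0.00470). *Col1a2* (chromosome 6, 4504814 to 4541544), which encodes the other chain of type I, had 8301 and 5254 against 9538 and 8219 reads. Its groups were separate, but the log2 fold change of 0.37 (SE 0.13, adjusted p = 0.0815) stayed under 1.4-fold and was not called. The *Col1a1* to *Col1a2* ratio per kilobase was 0.366 and 0.353 in wildtype against 0.456 and 0.491 in mutant libraries, so the chains shifted against each other by more than the replicates of a genotype differed. Type I is built from alpha-1 chains in excess over alpha-2, and the RNA ratio ran the opposite way in all 4 libraries. This ratio compares different genes by the length of the longest coding transcript, and it does not measure the ratio of the protein chains. *Col3a1* (chromosome 1, 45311538 to 45349706) had 6961 and 3911 against 11778 and 9950 reads. It was called at 0.99 (SE 0.17, adjusted p = 0.00348) on the log2 scale, and its wildtype libraries were the least alike of the class, at a 1.51-fold gap.

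*Col5a1* (chromosome 2, 27886425 to 28039514) was the most abundant gene of the class by CPM, with 11920 and 8827 wildtype against 17768 and 18747 mutant reads. It was called at a log2 fold change of 0.79 (SE 0.09, adjusted p = 0.000415), or 128 ± 12.1 against 220.2 ± 8.99 CPM. Its partner chain *Col5a2* (chromosome 1, 45374321 to 45503282) had 4043 and 2905 against 4739 and 3967 reads, and its log2 fold change of 0.30 (SE 0.11, adjusted p = 0.0905) was not called. The *Col5a1* to *Col5a2* ratio per kilobase was 2.32 and 2.40 in wildtype against 2.96 and 3.72 in mutant libraries, without overlap. *Col5a2* lies 24614 bases from *Col3a1*, on the opposite strand, and the fold changes of these neighbours were 1.23 and 1.98. *Col5a3* was nearly silent, at 13 to 36 reads per library, and was not called.

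*Col24a1* and *Col27a1* encode a separate branch of fibrillar collagens, of which type XXVII is known from cartilage. *Col27a1* (chromosome 4, 63214004 to 63334991) had 539 and 314 wildtype against 1014 and 1006 mutant reads. It had the largest fold change of the fibrillar class, 2.34-fold, with a log2 fold change of 1.23 (SE 0.19, adjusted p = 0.00184). *Col24a1* (chromosome 3, 145292472 to 145552011) had 303 and 226 against 413 and 478 reads, and was called at 0.72 (SE 0.20, adjusted p = 0.0292) on the log2 scale. Both genes had separate groups and were called whichever library was left out.

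The other collagens are a mixed class of 22 genes. Of the 20 tested, 12 were called higher, 1 lower and 7 were not called, with a median log2 fold change of 0.66 that was 1.11 without wildtype replicate 1 and 0.34 without mutant replicate 1. The summed level was 250.5 and 188 CPM in the wildtype and 281 and 224 CPM in the mutant libraries, so that the groups overlapped and the ratio of their means was only 1.15. *Col23a1* was the most abundant gene of this class, and without it, a set chosen after the values were seen, the sums were 169 and 108 against 226 and 169 CPM, a ratio of 1.43.

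*Col23a1* and 3 further genes encode transmembrane collagens, which span the plasma membrane and shed their triple-helical ectodomains. *Col23a1* (chromosome 11, 51289920 to 51583918) had 7175 and 5966 wildtype against 4582 and 4561 mutant reads. Scaled to depth it was at 81.9 and 80.4 against 55.2 and 55.1 CPM, so replicates of a genotype were nearly equal and the genotypes stood apart. The log2 fold change was -0.56 (SE 0.07, adjusted p = 0.000888), and the fits without 1 library gave -0.57 to -0.54. It was not called by glmTreat, a test of whether the change exceeds 1.4-fold.

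*Col25a1* (chromosome 3, 130131501 to 130599877), a neuronal transmembrane collagen also named CLAC-P, moved the opposite way. It was counted at 558 and 377 wildtype against 1087 and 894 mutant reads, a log2 fold change of 1.06 (SE 0.17, adjusted p = 0.00239). *Col13a1* (14 and 43 against 117 and 75 reads) was called at 1.66 (SE 0.63, adjusted p = 0.0937) on the log2 scale from few reads, and the call was lost without wildtype replicate 1 or mutant replicate 1. *Col17a1* (chromosome 19, 47646344 to 47692094), the hemidesmosomal collagen of epithelia, had 465 and 358 against 558 and 325 reads and overlapping groups. Its log2 fold change was 0.07 (SE 0.25, adjusted p = 0.877). Among the 4 transmembrane genes, 2 were thus called higher and 1 lower.

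Type VI collagen forms beaded microfilaments around cells of connective tissue and muscle, and its chains are products of *Col6a1* to *Col6a6*. *Col6a1* (chromosome 10, 76708792 to 76726168) had 2919 and 1979 wildtype against 2276 and 2100 mutant reads, with overlapping groups and a log2 fold change of -0.19 (SE 0.12, adjusted p = 0.317). *Col6a2* (chromosome 10, 76595762 to 76623630), its neighbour, had 1397 and 711 against 1405 and 921 reads, also overlapping, with a log2 fold change of 0.13 (SE 0.25, adjusted p = 0.760). *Col6a3* (chromosome 1, 90765923 to 90843971), which encodes the longest chain, had 2004 and 804 against 3559 and 1620 reads. It was called at 0.88 on the log2 scale (SE 0.38, adjusted p = 0.137), but wildtype replicate 1 lay above mutant replicate 2, and the call was lost without wildtype replicate 2 or mutant replicate 1. The *Col6a3* to *Col6a1* ratio per kilobase was 0.279 and 0.165 in wildtype against 0.634 and 0.313 in mutant libraries. *Col6a4* was called from only 6 and 2 against 16 and 14 reads, at 1.86 (SE 0.94, adjusted p = 0.1996), and in no fit that left out a library. *Col6a6* (4 to 18 reads) was not called, and *Col6a5* (0 to 6 reads) was too rare to test.

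Short-chain collagens build networks, whereas the anchoring collagen builds fibrils. *Col8a1* (chromosome 16, 57624258 to 57754737), a type VIII chain of vessel walls and Descemet's membrane, had 506 and 298 wildtype against 677 and 1040 mutant reads. It was called at a log2 fold change of 1.08 (SE 0.24, adjusted p = 0.0128). Its partner *Col8a2* (chromosome 4, 126286793 to 126314330) had 869 and 381 against 1023 and 959 reads, and was called at 0.66 (SE 0.26, adjusted p = 0.102), a call lost without wildtype replicate 2. *Col7a1*, which encodes the anchoring fibrils under stratified epithelia, had 255 and 128 against 522 and 307 reads and a log2 fold change of 1.10 (SE 0.33, adjusted p = 0.0408), with no call without wildtype replicate 2. *Col10a1*, known from hypertrophic cartilage, was read 0 and 4 times in the wildtype and 24 and 33 times in the mutant libraries. Its fitted log2 fold change of 3.69 (SE 1.11, adjusted p = 0.0435) was the largest of all collagen genes, but it rests on few reads and ranged from 2.64 to 7.87 in the fits without 1 library. The value of 7.87 came without wildtype replicate 2, which left the wildtype at 0 reads, so its size is not a measured fold. Exons of *Col10a1* overlap those of *Nt5dc1*, and the strand setting of the counting is not given in the sources used here.

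Fibril-associated collagens with interrupted helices sit on the surface of fibrils. *Col12a1* (chromosome 9, 79598991 to 79718831), of tendon and dense connective tissue, had 3444 and 1282 wildtype against 4404 and 3058 mutant reads. Its wildtype libraries differed 2.28-fold, and although it was called at a log2 fold change of 0.67 (SE 0.32, adjusted p = 0.174) its groups overlapped. *Col14a1* (chromosome 15, 55307750 to 55520803) had 382 and 256 against 619 and 395 reads, a log2 fold change of 0.64 (SE 0.24, adjusted p = 0.0946). *Col16a1* (chromosome 4, 130047840 to 130099283) had 194 and 108 against 316 and 320 reads, and was called at 1.06 (SE 0.27, adjusted p = 0.0231). The calls of *Col12a1* and *Col14a1* were lost without wildtype replicate 2 or mutant replicate 1, whereas that of *Col16a1* held whichever library was left out. *Col22a1* (chromosome 15, 71795795 to 72034227), known from tissue junctions, had 743 and 510 against 616 and 567 reads, overlapping groups and a log2 fold change of -0.11 (SE 0.16, adjusted p = 0.693). *Col19a1* and *Col20a1*, at 12 to 149 reads per library, also overlapped and were not called. *Col26a1* (chromosome 5, 136741759 to 136883209), a short collagen of developing gonads, had 889 and 585 against 1330 and 1239 reads and was called at 0.78 (SE 0.15, adjusted p = 0.00572). *Col28a1* was read 0 to 9 times and not tested.

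Libraries of the same genotype also differed in collagen RNA. Wildtype replicate 1 was above wildtype replicate 2 in 26 of the 28 genes that averaged at least 5 CPM, and mutant replicate 1 was above mutant replicate 2 in 20 of them. The classes were not tested against each other, and single genes departed from the medians that follow. Over all tested genes the median log2 ratio of replicate 1 to replicate 2 was -0.00068 in the wildtype and 0.0087 in the mutant pair. In the class of other collagens the medians were 0.36 and 0.40, and in the fibrillar class 0.45 and 0.05. For the basement membrane class they were 0.05 and 0.03, and for the lens and vitreous class 0.12 and -0.15. Among the 28 genes that averaged at least 5 CPM, the widest gaps in the wildtype were those of *Col12a1* (2.28-fold) and *Col6a3* (2.11-fold), and *Col6a3* was also the most unequal of these in the mutant pair (2.19-fold).

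**Figure D3:**
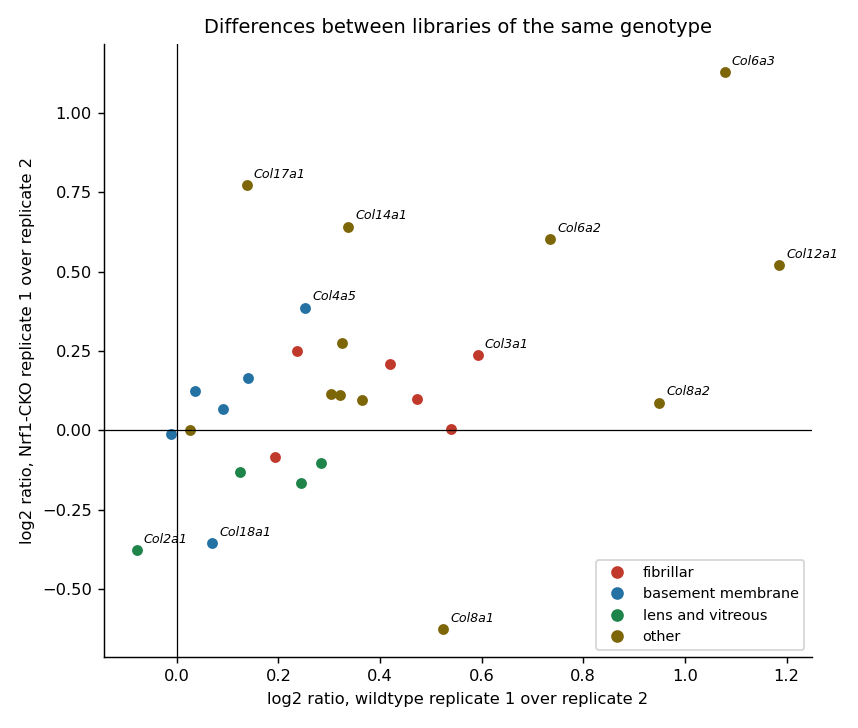
Log2 ratio of replicate 1 to replicate 2 in the wildtype (horizontal) and in the mutant libraries (vertical) for the 28 collagen genes that averaged at least 5 CPM, coloured by class. Basement membrane genes cluster near 0 on both axes apart from *Col4a5* and *Col18a1*, whereas *Col6a3* lies above 1 on both.

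Genes that act with collagens were read from 5 lists, each described by its counts beside those of all genes above. The 35 genes of collagen synthesis and assembly hold the hydroxylases, chaperones, export factors, propeptidases and crosslinking enzymes of the pathway. Of these, 14 were called higher and 21 were not called, and the median log2 fold change was 0.50. By step, the higher calls were 3 of 10 genes of prolyl hydroxylation, 2 of 6 of lysyl hydroxylation and glycosylation, 2 of 6 of folding and export, 4 of 8 of propeptide removal and 3 of 5 of crosslinking.

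The crosslinking enzyme genes *Loxl1* and *Lox*, encoding copper-dependent amine oxidases that join collagen and elastin chains, were both called higher. *Loxl1* had 1880 and 1725 wildtype against 3896 and 4820 mutant reads, a log2 fold change of 1.23 (SE 0.12, adjusted p = 0.000211). *Lox* had 510 and 276 against 842 and 722 reads, at 0.98 (SE 0.22, adjusted p = 0.0120). *Sec24d*, part of the coat of vesicles that carry procollagen from the endoplasmic reticulum, had 890 and 633 against 1406 and 1475 reads (log2 fold change 0.89, SE 0.13, adjusted p = 0.00152). *Fkbp10*, a collagen chaperone, had 3373 and 2661 against 4769 and 6296 reads (log2 fold change 0.84, SE 0.13, adjusted p = 0.00167). *Serpinh1*, encoding the collagen-specific chaperone HSP47, was far more abundant, with 48136 and 42039 against 58544 and 63768 reads. Its log2 fold change of 0.40 (SE 0.08, adjusted p = 0.00824) was below the 1.4-fold threshold, and its groups did not overlap. *P4hb*, which encodes the beta subunit of prolyl 4-hydroxylase and also serves other secreted proteins, had 42409 and 35562 against 39394 and 44285 reads and was not called (log2 fold change 0.07, SE 0.09, adjusted p = 0.641). A gene picked after its values were seen, *P3h2* (listed under its older symbol *Leprel1*), a prolyl 3-hydroxylase, had 58 and 55 against 670 and 571 reads, a 10.7-fold difference (log2 fold change 3.41, SE 0.23, adjusted p = 7.88e-05).

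**Figure D4:**
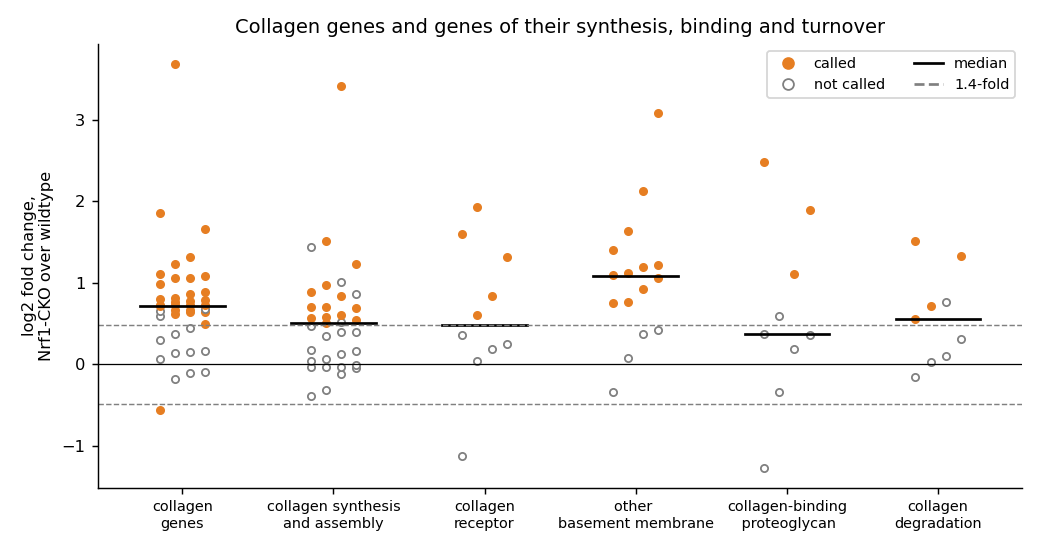
Log2 fold change in mutant over wildtype retinas of the tested genes of each list, with filled points for called genes, a bar for the median and dashed lines at 1.4-fold. The medians run from 0.37 for collagen-binding proteoglycans to 1.08 for the other basement membrane genes, and *Col23a1* is the only called gene below 0 in the 6 columns.

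Among 10 collagen receptor genes, 5 were called higher and 5 were not called, with a median log2 fold change of 0.48. *Itga1*, the integrin alpha-1 chain that binds type IV collagen, had 469 and 284 wildtype against 1010 and 890 mutant reads, at 1.32 (SE 0.19, adjusted p = 0.00132) on the log2 scale. *Ddr2*, a receptor tyrosine kinase for fibrillar collagen, had 820 and 444 against 1351 and 924 reads (log2 fold change 0.83, SE 0.24, adjusted p = 0.0344). *Mrc2*, an endocytic collagen receptor, had 5170 and 4537 against 7256 and 7928 reads (log2 fold change 0.61, SE 0.08, adjusted p = 0.000936). *Itgb1*, the beta-1 partner of all collagen-binding integrins, was not called, at 26952 and 20044 against 27198 and 27157 reads (log2 fold change 0.18, SE 0.09, adjusted p = 0.180).

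The other components of basement membranes, 16 genes for laminins, nidogens, proteoglycans and the crosslinking peroxidase *Pxdn*, had the highest median of the 5 lists, 1.08, with 12 called higher and 4 not called. They included 8 of 11 laminin genes and 4 of 5 genes of the other components. *Nid1*, encoding nidogen-1, which links laminin to type IV collagen, had 3170 and 2855 wildtype against 16245 and 10884 mutant reads, a 4.38-fold difference (log2 fold change 2.13, SE 0.16, adjusted p = 0.000103). *Nid2* had 2152 and 1717 against 4545 and 4635 reads (log2 fold change 1.21, SE 0.08, adjusted p = 9.45e-05). The laminin genes *Lamb1* and *Lama5* were called as well, with differences of 2.64-fold (3945 and 3113 against 10191 and 8841 reads, adjusted p = 7.70e-05) and 2.29-fold (5229 and 4866 against 11284 and 12508 reads, adjusted p = 9.88e-05). *Agrn*, a further gene picked after its values were seen and encoding the proteoglycan agrin, was the one gene of the list with both mutant libraries below both wildtype libraries, at 48636 and 42754 against 38521 and 35389 reads. Its log2 fold change of -0.34 (SE 0.08, adjusted p = 0.0165) was too small to be called.

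Of 11 small leucine-rich proteoglycan genes that bind collagen, 9 were tested and 3 were called higher (6 without wildtype replicate 1), and the median log2 fold change was 0.37. *Ogn*, osteoglycin, had 693 and 387 wildtype against 2586 and 1467 mutant reads (log2 fold change 1.89, SE 0.27, adjusted p = 0.00142). *Bgn*, biglycan, had 736 and 458 against 1378 and 1235 reads (log2 fold change 1.11, SE 0.17, adjusted p = 0.00167). Of 12 genes of collagen breakdown, 9 were tested and 4 were called higher, and the median over the tested genes was 0.55 on the log2 scale. The called genes were 2 proteases and 2 of their inhibitors. *Timp3*, an inhibitor of metalloproteinases held in Bruch's membrane, had 1042 and 993 against 2595 and 2686 reads (log2 fold change 1.33, SE 0.11, adjusted p = 0.000111), and *Timp2* had 2886 and 2441 against 4304 and 4632 reads (log2 fold change 0.71, SE 0.08, adjusted p = 0.000462). *Mmp2*, a gelatinase, had 2001 and 1592 against 2709 and 2675 reads (log2 fold change 0.55, SE 0.09, adjusted p = 0.00306).

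Marker genes of the cells that a dissected retina could carry along also differed between the libraries, and the plot of summed levels sets them beside the collagen classes. Lens genes summed to 165 and 473 CPM in the wildtype and 9682 and 3999 CPM in the mutant libraries, with 11 of 12 called higher. Their most abundant member, *Cryaa*, had 6746 and 14696 against 333178 and 140420 reads. In the same libraries the lens and vitreous collagens summed to 587 and 555 against 826 and 985 CPM. In the mutant pair, 5 of the 6 genes of that class were higher in replicate 2, and the lens sum was higher in replicate 1. In the wildtype pair, 4 of the 6 were higher in replicate 1, and the lens sum was higher in replicate 2. The part of lens RNA in the collagen differences was not tested.

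Beside the fibrillar and type VI collagens, periocular mesenchyme genes summed to 51.5 and 44.7 CPM in the wildtype and 112 and 86.3 CPM in the mutant libraries, with 7 of 11 tested called higher. Their most abundant genes were *Pdgfra* (946 and 759 against 3842 and 2815 reads) and *Eya1* (1071 and 1034 against 1380 and 1099 reads), and *Tcf21* was at or below 3 reads in every library. Skeletal muscle genes summed to 11.9 and 4.52 against 90.1 and 16.5 CPM, with all 5 tested called higher. The most abundant gene of the muscle list was *Myh3* (660 and 222 against 4648 and 766 reads). Cartilage genes summed to 5.97 and 8.37 against 8.61 and 8.19 CPM, and of the 3 tested 1 was called higher and 1 lower. *Hapln1* had 356 to 475 reads per library and was not called, and *Matn3* (41 and 56 against 155 and 244 reads) was called higher. *Ucma* was at 0 reads and *Acan* at 0 to 5 reads in each library. Replicate 1 was above replicate 2 in both genotypes in the sums of the mesenchyme and muscle lists, as it was for many collagen genes. The same order held for the sums of the corneal and surface ectoderm list and of the ciliary margin list, both given below. The part of these cells in the collagen differences was not tested.

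Beside the basement membrane collagens, endothelial genes summed to 286 and 289 CPM in the wildtype and 317 and 313 CPM in the mutant libraries, with 8 of 10 called higher and 1 lower. The lower one, *Kdr*, is also the most abundant of the list (17486 and 15643 against 11946 and 11374 reads). At 200 and 211 against 144 and 137 CPM, it made up a large part of the sum. The median log2 fold change of the endothelial list was 1.07, and *Cdh5* had 2242 and 1719 against 4915 and 4425 reads. Pericyte and smooth muscle genes summed to 189 and 196 against 343 and 342 CPM, with 7 of 8 called higher. Pigment epithelium genes summed to 224 and 160 against 408 and 430 CPM (7 of 8 tested called higher), and ciliary margin genes to 379 and 362 against 756 and 727 CPM (5 of 6). Macrophage and microglia genes summed to 69.6 and 63.0 against 210.2 and 252 CPM, with all 8 called higher. Corneal and surface ectoderm genes summed to 30.3 and 23.8 against 47.7 and 43.5 CPM (6 of 8 called higher), and astrocyte and optic stalk genes to 5.73 and 6.61 against 11.1 and 8.12 CPM (2 of 4 tested). Their part in the collagen differences was not tested.

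Of the retina's own cells, 8 progenitor genes summed to 2476 and 2661 CPM in the wildtype and 2386 and 2596 CPM in the mutant libraries, with log2 fold changes between -0.29 and 0.09 that did not reach 1.4-fold. The 8 retinal ganglion cell genes, led by *Nefl* (27271 and 30588 against 8852 and 6651 reads), were all called lower, and their sum went from 1599 and 1812 to 611 and 473 CPM. The sums of the fibrillar, basement membrane, and lens and vitreous collagens were higher in both mutant libraries than in both wildtype libraries, by 1.59-fold to 1.66-fold.

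**Figure D5:**
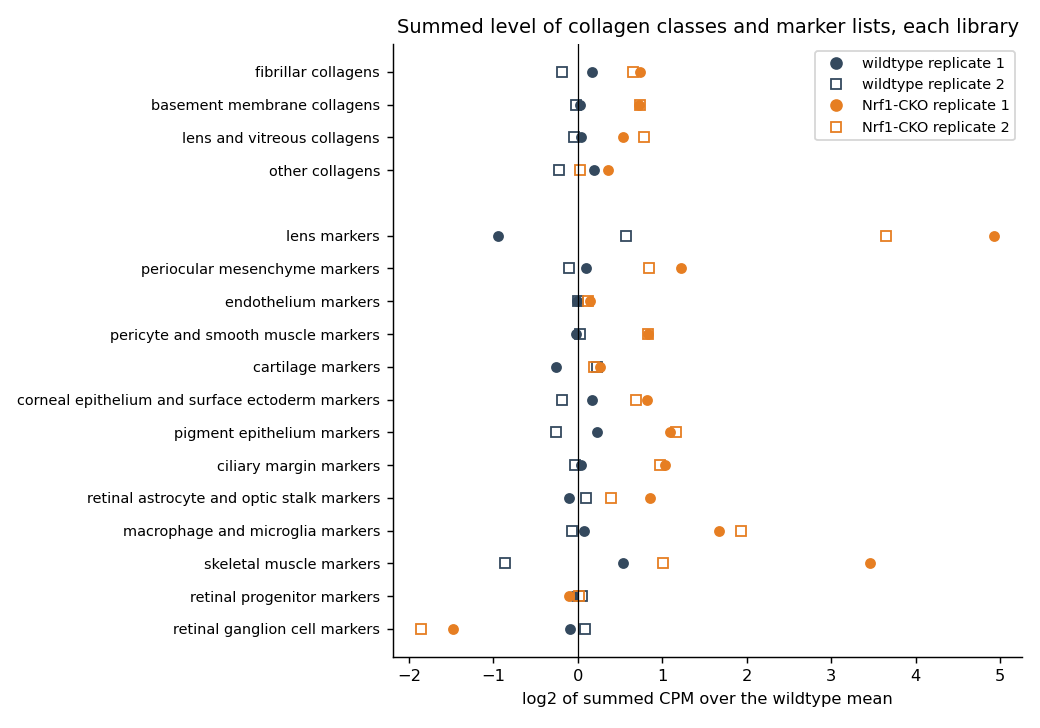
Log2 of the summed CPM of each collagen class and marker list over the mean of its 2 wildtype libraries, with circles for replicate 1 and squares for replicate 2 of each genotype. Of the collagen classes, the first 3 have both mutant libraries right of both wildtype libraries, and lens genes show the largest shift, at 9682 and 3999 CPM in the mutant libraries.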

How the data were processed

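RNA-seq libraries of E13.5 retinas, 2 wildtype and 2 *Nrf1 f/f;Six3-Cre*, were read from the authors' table of gene counts. Per the paper's methods and the submitters' processing notes, cDNA was made with a NuGen kit, sequenced as paired-end reads, aligned to mm10 with TopHat2 2.7.2 and counted per gene with HTSeq. The authors deposited these whole-number counts without normalization. They also deposited normalized values on a log2 scale, in which every count of 0 has the same value, and how these were made is not given in the sources used here, nor are the annotation release and the strand setting. The labels name DESeq and limma among the tools and the methods name Cuffdiff.

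The header has an extra empty cell, so each library name stands 1 column to the right of its values and was read accordingly. The 5 summary rows of HTSeq, 74.0% to 75.0% of entries per library, were left out. Among them, alignments that were not unique made up 54.6% to 58.0% of all entries per library. Genes were filtered with filterByExpr (minimum count 10), scaled with TMM factors of 0.992 to 1.02 and tested by genotype alone with edgeR 4.0.16 under R 4.3.3, using its quasi-likelihood F test and Benjamini-Hochberg adjustment. The script was first tested on simulated data. Each standard error is the log2 fold change divided by the root of its F. The biological coefficient of variation was 12.0%. Replicates differed by more than sampling noise (chi-square per gene 47.6 in the wildtype and 59.1 in the mutant pair). SDs are over 2 libraries, PCR copies are not independent molecules, and 2 libraries per genotype limit the precision.

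Coordinates and transcript lengths come from GENCODE M21, start-site sequences from RefSeq on GRCm38.p6. RPKM divides TMM-scaled CPM by the longest coding transcript. The collagen genes, classes, partner and marker lists were chosen with earlier results of these data known. *Col2a1*, *Col11a1* and *Col11a2*, fibrillar by structure, were placed with the lens and vitreous class. Collagen genes that were called or averaged at least 5 CPM are given with their reads. Of each partner list, up to 4 called genes of at least 5 CPM with the largest change are named in each direction, plus *Serpinh1*, *P4hb*, *Lox* and *Itgb1*, and of marker lists the most abundant genes. Older symbols were matched for 6 listed genes, and *Col21a1* and *Snorc* had no match. Alternatives changed the tool (DESeq2 1.42.0), the scaling (library size, upper quartiles or TMM without the listed genes), the filter and the thresholds, added the replicate number as a block, ran limma 3.58.1 on the deposited log2 values, moved types II and XI to the fibrillar class, or left out 1 library. The result for 1 marker gene is not reported here.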

Additional observations from a re-analysis of the deposited data

How the results depend on the processing

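Of the 28 collagen genes called higher, 26 remained called with library size scaling (without *Col4a5* and *Col6a4*), 28 with upper-quartile scaling or with the listed genes left out of the scaling, 27 without a filter, 26 with at least 10 counts in every library, and 24 with DESeq2 (without *Col12a1*, *Col4a3*, *Col6a3* and *Col6a4*). Tested against 1.4-fold with glmTreat, 17 collagen genes were called higher and 0 lower, *Col23a1* not among them, and limma on the deposited log2 values called 18 higher. With glmTreat the calls were 7 in the synthesis, 3 in the receptor and 2 in the degradation list. The cause was not tested.

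Leaving out each library in turn, the median log2 fold change ran from 0.59 to 0.93 for fibrillar, 0.67 to 0.81 for basement membrane, 0.60 to 0.79 for lens and vitreous and 0.34 to 1.11 for other collagens. The lowest and highest values for the other collagens came without mutant replicate 1 and without wildtype replicate 1, and the number of higher collagen calls ran from 20 to 26. The proteoglycan list had 3 to 6 calls, the highest without wildtype replicate 1. Among the named genes, signs reversed for some that were not called, namely *Col17a1* (-0.37 to 0.40 over the fits that left out a library), *Col22a1* (-0.25 to 0.057), *Col6a2* (-0.20 to 0.55, and -0.18 without wildtype replicate 2), *P4hb* (-0.025 to 0.15) and *Nrf1* (0.0060 with upper-quartile scaling). Of the rare collagen genes, *Col4a4* (-0.51 to 2.38), *Col19a1* (-1.45 to 1.03) and *Col20a1* (-0.42 to 0.58) also crossed 0 over the fits that left out a library. The results of glmTreat and of limma on the deposited values, given above, are not in the count that follows. Of 614 gene results over 56 named genes, 572 kept direction and side of the threshold, 32 lost the call, 4 gained it and 6 reversed.

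The labels do not say that a replicate number marks a shared litter or batch, so the numbers were not taken to pair the libraries. The correlation of deviations of libraries with the same number was -0.0025 over 15762 genes and 0.178 over the 42 tested collagen genes. With the replicate number as a block, 26 collagen genes were called higher and 1 lower, without *Col4a5* and *Col6a4* among the 28. The adjusted p of *Col12a1* went from 0.174 to 0.000943 (SE 0.32 to 0.13) under this block, and over all genes 1970 were higher and 1256 lower.

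With 2 pooled libraries per genotype, the spread is known only roughly. Genes of few reads, such as *Col10a1*, *Col6a4* and *Col4a3*, had wide errors, and *Col6a5* and *Col28a1* could not be tested at this depth.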
